A study of Mus musculus with 8 samples.

Results

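The 46 mitosis and cytokinesis genes described here were chosen by symbol and cover the kinases that start mitosis, the kinetochore, the spindle, the chromosomal passenger complex, chromosome structure and cytokinesis. Each symbol was read from the row with the highest total count, which gave 46 of the 23366 gene symbols in the count table, and all 46 passed the filter on low counts that kept 14418 genes for testing. RNA sequencing counts came from 8 libraries of cultured embryonic fibroblasts of C57BL/6 mice (MEFs), primary connective tissue cells used at passages 3 to 5. The 4 groups of 2 libraries each were Kdm3a KO-labelled cells starved for 12 h, Kdm3a KO-labelled cells fed (0 h), wild-type (WT) cells starved for 12 h and WT cells fed (0 h). Kdm3a encodes a histone H3K9 demethylase. Fed cells grew in DMEM with 10% FBS and antibiotics, and starved cells were held in DMEM lacking glucose with 10% dialyzed FBS. No cells were kept fed for 12 h and none received dialyzed serum together with glucose, so starvation here stands for the change of glucose, serum and time together. The labels do not name separate embryos or cultures for the replicates, and p-values therefore measure only the spread between these libraries, which may be technical.

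Mitosis begins when CDK1 bound to a B-type cyclin becomes active, with CDC25 phosphatases, PLK1 and Aurora A feeding that switch. Chromosomes, packed by condensin and topoisomerase II, then attach through kinetochores to spindle microtubules, and the checkpoint kinases hold back the anaphase-promoting complex (APC/C) until attachment is complete. After anaphase the central spindle, built by PRC1 and by the complex of KIF23 and RACGAP1, directs ECT2 and the contractile ring to divide the cell. Most of these genes are transcribed mainly in G2 and M phase, through FOXM1 and through complexes built on MuvB proteins. In bulk RNA, fewer dividing cells and less RNA per dividing cell cannot be told apart.

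Each library held 38407520 to 53602289 counts and 14426 to 16050 genes with a count. Kdm3a itself stood at 55.2 and 55.4 CPM (counts scaled to a common library size) in fed KO-labelled cells, against 56.1 and 56.4 CPM in fed WT cells. It stood at 65.4 and 66.7 CPM in starved KO-labelled cells, against 176 and 185 CPM in starved WT cells. The transcript was thus not reduced in the fed libraries labelled KO, although a deleted exon could go unseen in counts over the full transcript, and each direction between genotypes rests on the label alone. Xist ran from 869 to 1370 CPM in KO-labelled libraries, against 0.939 to 1.54 CPM in WT libraries, and 4 Y-linked genes had 0 to 2 counts in each KO-labelled library, against 296 to 1251 counts in each WT library. Genotype and sex therefore cannot be told apart in any comparison between the labels. Of 12 fibroblast markers, 11 or 12 were above 1 CPM in each group, but their levels differed between the labels. They summed to 13241.4 to 13371.3 CPM in starved and 11550.9 to 11581 CPM in fed KO-labelled libraries. In WT libraries they summed to 21031.8 to 22067.5 CPM when starved and 20667.9 to 21224.1 CPM when fed. Within these WT sums single markers moved in opposite directions. Col1a1 had 240 and 255 CPM in starved and 4752 and 4572 CPM in fed WT libraries. Col3a1 had 27.0 and 29.8 CPM when starved and 626 and 615 CPM when fed. Vim had 11396 and 11323 CPM in starved and 4400 and 4395 CPM in fed WT libraries. Fn1 had 7575 and 8597 CPM when starved and 3663 and 3450 CPM when fed. Col1a2 had 267 and 261 CPM in fed KO-labelled and 6200 and 6020 CPM in fed WT libraries. Dcn had 52.2 and 50.6 CPM in fed KO-labelled and 2.57 and 2.25 CPM in fed WT libraries. The defining blood and macrophage markers Ptprc, Emr1 and Fcgr1 were at 0, as were the endothelial markers Tie1 and Emcn and the muscle markers Myod1 and Myog. The macrophage and blood list summed to 53.2 to 54.3 CPM in starved and 21.5 to 22.1 CPM in fed KO-labelled libraries, and to 7.0 to 10.2 CPM in starved and 19.0 to 19.4 CPM in fed WT libraries. Within it Cd68 had 40.9 and 40.7 CPM and Csf1r 6.03 and 6.42 CPM in starved KO-labelled libraries, against 3.63 and 3.36 CPM for Cd68 and 0.438 and 0.398 CPM for Csf1r in fed KO-labelled libraries. Cd14 went the other way, with 5.90 and 6.69 CPM in starved and 16.8 and 17.9 CPM in fed KO-labelled libraries. In WT libraries Cd14 had 2.70 and 4.33 CPM when starved and 16.2 and 16.0 CPM when fed. The endothelial list summed to 52.9 to 54.9 CPM in starved WT libraries, of which Kdr made up 54.8 and 52.8 CPM, and to 2.29 to 5.5 CPM in the other groups. The neural and glial list, in which Olig2 was at 0, summed to 49.1 to 50.7 CPM in starved and 32.7 CPM in fed KO-labelled libraries, and to 40.4 to 42.5 CPM in starved and 74.6 to 74.9 CPM in fed WT libraries. The epithelial and muscle lists stayed under 7 CPM in every library. The part of these markers in the results below was not tested.

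Starvation came with lower levels of nearly the whole gene set in both genotypes. In KO-labelled cells all 46 genes fell, with a median log2 fold change of -2.08 (starved over fed), and 44 of them fell by more than 2-fold. In WT cells 44 fell and 2 rose (45 and 0 with scaling by library totals), with a median of -1.65, and 36 fell by more than 2-fold. Among all 14418 genes tested, 40.3% fell in KO-labelled cells and 20% fell by more than 2-fold, with a median of -0.02. In WT cells 44.8% of all genes fell and 27.4% fell by more than 2-fold, while 36.7% rose, with a median of -0.17. With library totals 8629 of the 14418 genes fell and 3397 rose in WT cells. The summed level of the 46 genes was 1898 and 1899 CPM in starved KO-labelled libraries, against 7155 and 7127 CPM in fed KO-labelled libraries. In WT cells it was 2760 CPM in both starved libraries, against 6755 and 6750 CPM in fed libraries. Falls and rises of single genes are given as log2 fold changes, with the SE where one is printed. Genes were called by the quasi-likelihood F test of edgeR (adjusted p under 0.05), and the largest adjusted p among the 46 genes was 2.09e-12 in KO-labelled cells and 0.000490 in WT cells. In each of the 46 genes the starved and the fed libraries of a genotype did not overlap, all 46 being lower in starved KO-labelled cells (45.9% of all genes), and 44 lower (49.4% of all genes) and 2 higher (39.6%) in starved WT cells.

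**Figure D1:**
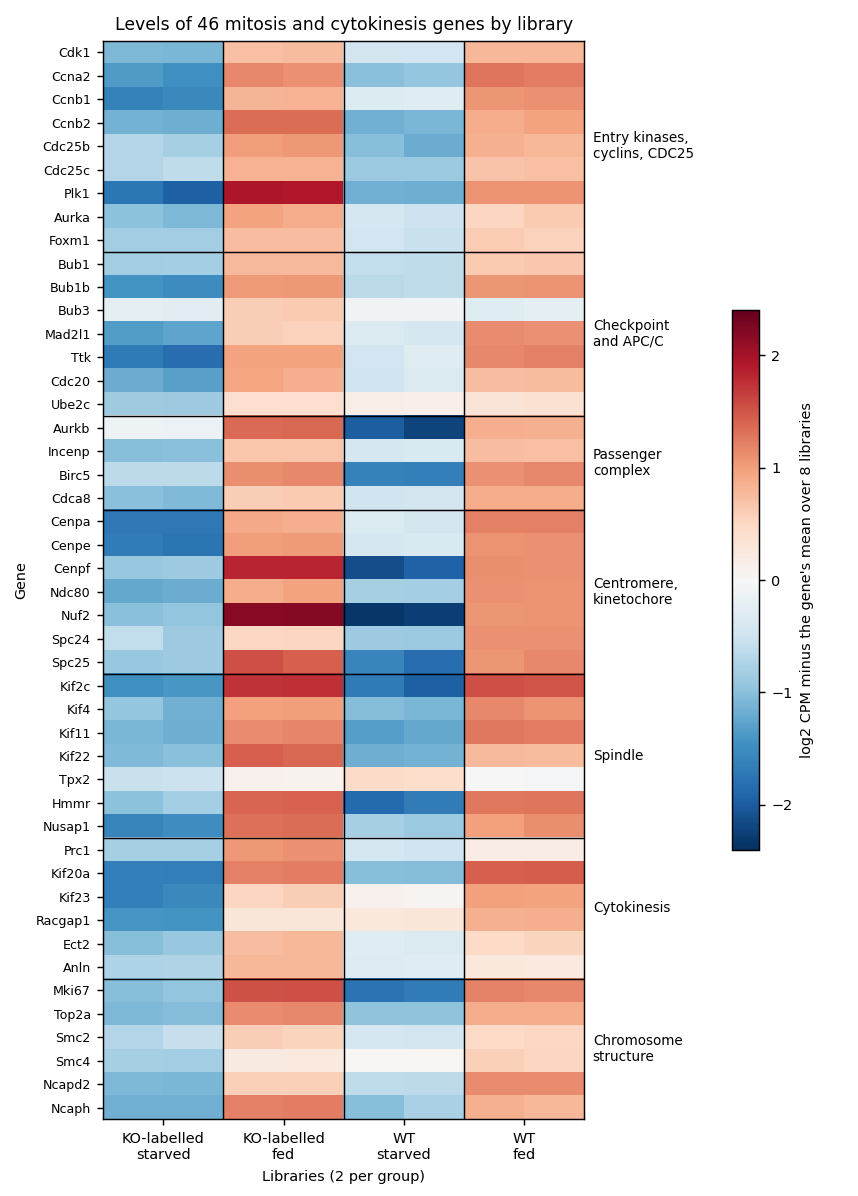
Levels of the 46 genes (rows, by role group) in the 8 libraries (columns, 2 per group), as log2 CPM minus the mean of the gene over the 8 libraries (red higher, blue lower; values past the ends of the colour scale are drawn at its ends). Under TMM scaling, in KO-labelled cells all 46 genes are lower in the starved columns, and in WT cells 44 are, with Bub3 and Tpx2 as the exceptions.

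The genes that carry entry into mitosis all fell in both genotypes, 9 of 9 in each, with a median of -1.96 in KO-labelled and -1.60 in WT cells. Plk1, the Polo-like kinase that acts from mitotic entry to cytokinesis, stood at 12.9 and 11.1 CPM in starved KO-labelled cells, against 167 and 163 CPM in fed KO-labelled cells. In WT cells it stood at 19.3 and 19.1 CPM when starved, against 91.5 and 91.8 CPM when fed. Its fed KO-labelled libraries were the highest of the 8 and its starved KO-labelled libraries the lowest. It was the gene with the largest fall of the set in KO-labelled cells (-3.78 ± 0.055, log2 fold change ± SE) and of its role group in WT cells (-2.25 ± 0.056). Cdk1, the mitotic kinase itself, had 75.8 and 75.2 CPM in starved and 264 and 271 CPM in fed KO-labelled cells (-1.82 ± 0.033). In WT cells Cdk1 had 118 and 117 CPM when starved and 279 and 278 CPM when fed (-1.24 ± 0.033). The cyclin genes had more negative values than Cdk1 in both genotypes, though these differences between genes were not tested. Ccna2, of S and G2 phase, fell by 2.55 in KO-labelled and 2.22 in WT cells on the log2 scale, Ccnb1 by 2.42 in KO-labelled and 1.38 in WT cells and Ccnb2 by 2.49 in KO-labelled and 2.06 in WT cells. Aurka, the centrosomal Aurora kinase, had the smallest fall of the role group in WT cells, with 43.4 and 41.4 CPM when starved and 82.8 and 89.7 CPM when fed (-1.02 ± 0.053). In KO-labelled cells it had 29.4 and 27.5 CPM when starved and 114 and 108 CPM when fed (-1.96 ± 0.052). Cdc25c, a phosphatase that removes the inhibitory marks on CDK1, had the smallest fall of the role group in KO-labelled cells, with 9.80 and 10.5 CPM when starved and 28.6 and 28.6 CPM when fed (-1.49 ± 0.076). The related phosphatase Cdc25b fell by 1.78 in KO-labelled and 1.93 in WT cells on the log2 scale. Foxm1, a transcription factor that drives many of the other genes in the set, fell by 1.58 in KO-labelled and 1.08 in WT cells.

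Of the spindle checkpoint and APC/C activation genes, 7 of 7 fell in KO-labelled cells (median -1.87), and 6 fell while 1 rose in WT cells (median -1.23). Ttk, the checkpoint kinase also called MPS1, had the largest fall in KO-labelled cells, with 6.45 and 5.90 CPM when starved and 40.9 and 40.8 CPM when fed (-2.73 ± 0.076). In WT cells Ttk had 15.3 and 17.1 CPM when starved and 46.6 and 48.3 CPM when fed (-1.55 ± 0.071). Bub1b, which encodes the checkpoint protein BUBR1, had the largest fall in WT cells, with 41.9 and 42.6 CPM when starved and 136 and 137 CPM when fed (-1.69 ± 0.043). The kinase gene Bub1 fell by 1.60 in KO-labelled and 1.23 in WT cells, and Mad2l1, the inhibitor of CDC20, by 1.87 in KO-labelled and 1.49 in WT cells. Cdc20, the activator of the APC/C, fell by 2.16 in KO-labelled and 1.16 in WT cells. Ube2c, the ubiquitin-conjugating enzyme of the APC/C, had 63.7 and 63 CPM in starved and 153 and 153 CPM in fed KO-labelled cells (-1.27 ± 0.038), and in WT cells 128 and 126 CPM when starved and 143 and 149 CPM when fed (-0.20 ± 0.037). The starved KO-labelled libraries of Ube2c thus stood apart from the other 6, among which the starved WT libraries were lower than the fed ones. Bub3, the binding partner of BUB1 and BUBR1, which also has roles outside mitosis, went against its role group in WT cells. It had 101 and 101 CPM in starved and 87.5 and 91.6 CPM in fed WT cells (0.17 ± 0.040), but was called lower at -0.28 when libraries were scaled by their totals. In KO-labelled cells Bub3 had 90.9 and 88.8 CPM when starved and 162 and 167 CPM when fed (-0.87 ± 0.038), the smallest fall of the role group.

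The 4 genes of the chromosomal passenger complex, which corrects wrong attachments and then moves to the central spindle, fell in both genotypes, with a median of -1.66 in KO-labelled and -2.05 in WT cells. Aurkb, the kinase of the complex, had 34.1 and 33.8 CPM in starved and 94.7 and 97 CPM in fed KO-labelled cells (-1.50 ± 0.050), the smallest fall of the role group there. In WT cells it had 9.46 and 7.91 CPM when starved and 67.6 and 66.9 CPM when fed (-2.95 ± 0.067), the largest fall of the role group. The starved WT libraries of Aurkb were the lowest of the 8 and the fed KO-labelled libraries the highest. Birc5, which encodes the survivin subunit, had 29 and 29.1 CPM in starved and 96.4 and 100 CPM in fed KO-labelled cells (-1.76 ± 0.046). In WT cells Birc5 had 14.5 and 14.3 CPM when starved and 95.7 and 99.7 CPM when fed (-2.76 ± 0.054). The order within the complex was thus not the same in the 2 genotypes: the scaffold gene Incenp, with the smallest fall in WT cells (-1.11 ± 0.037), fell by 1.69 in KO-labelled cells, and the borealin gene Cdca8 fell by 1.64 in KO-labelled and 1.34 in WT cells.

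The 7 centromere and kinetochore genes fell in both genotypes and all by more than 2-fold, with medians of -2.61 in KO-labelled and -1.98 in WT cells. Nuf2, a subunit of the NDC80 complex that binds microtubules, had the largest fall in both. It had 11.3 and 11.7 CPM in starved and 103 and 105 CPM in fed KO-labelled cells (-3.17 ± 0.055), and 4.48 and 4.73 CPM in starved and 47.3 and 47.8 CPM in fed WT cells (-3.37 ± 0.073). The other subunits of that complex were unequal: Ndc80 fell by 2.13 in KO-labelled and 1.90 in WT cells, and Spc25 by 2.39 in KO-labelled and 2.81 in WT cells. Spc24 had the smallest fall of the role group in KO-labelled cells, with 14.4 and 12 CPM when starved and 30.9 and 31.1 CPM when fed (-1.24 ± 0.076). In WT cells Spc24 had 12 and 11.8 CPM when starved and 46.6 and 46.8 CPM when fed (-1.98 ± 0.080). Cenpe, the kinetochore kinesin that carries chromosomes to the spindle equator, had 21.2 and 20.1 CPM in starved and 135 and 137 CPM in fed KO-labelled cells (-2.72 ± 0.045). In WT cells it had the smallest fall of the role group, with 51 and 52.6 CPM when starved and 144 and 146 CPM when fed (-1.48 ± 0.042). The fed libraries of Cenpe lay close together in the 2 genotypes, and the starved KO-labelled ones were below the starved WT ones. Cenpf, a large outer kinetochore protein gene, fell by 2.72 in KO-labelled and 3.14 in WT cells. Cenpa, the histone H3 variant that marks centromeres, fell by 2.61 in KO-labelled and 1.60 in WT cells.

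Among the spindle motors and microtubule factors, 7 of 7 fell in KO-labelled cells (median -2.30), and 6 fell while 1 rose in WT cells (median -2.19). Kif2c, the microtubule-depolymerising kinesin MCAK, had the largest fall in both. It had 11.6 and 12.3 CPM in starved and 107 and 109 CPM in fed KO-labelled cells (-3.17 ± 0.058), and 9.98 and 8.30 CPM in starved and 94.4 and 92 CPM in fed WT cells (-3.35 ± 0.066). Hmmr, a spindle assembly factor that is also a hyaluronan receptor, fell by 2.30 in KO-labelled and 3.04 in WT cells. Kif11, the motor that pushes spindle poles apart, fell by 2.29 in KO-labelled and 2.52 in WT cells. The chromosome-bound kinesins Kif4 (-2.03 in KO-labelled and -2.19 in WT cells) and Kif22 (-2.43 in KO-labelled and -1.92 in WT cells) fell as well, as did the microtubule bundler Nusap1 (-2.88 in KO-labelled and -1.89 in WT cells). Tpx2, which activates Aurora A on spindle microtubules, stood apart. It had 314 and 306 CPM in starved and 225 and 224 CPM in fed WT cells (0.47 ± 0.031), a rise that was 0.01 (adjusted p = 0.758) when libraries were scaled by their totals. Its starved WT libraries were the highest of the 8. In KO-labelled cells Tpx2 had 157 and 159 CPM when starved and 245 and 241 CPM when fed (-0.62 ± 0.031), the smallest fall of the set.

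The 6 central spindle and cytokinesis genes fell in both genotypes, but with a median of -1.80 in KO-labelled and -0.74 in WT cells. In KO-labelled cells 6 of 6 fell by more than 2-fold and in WT cells 1 of 6. That gene was Kif20a, the kinesin MKLP2 that brings Aurora B to the central spindle, with 44 and 43.3 CPM in starved and 318 and 323 CPM in fed KO-labelled cells (-2.88 ± 0.035). In WT cells Kif20a had 67.8 and 67 CPM when starved and 371 and 376 CPM when fed (-2.47 ± 0.034). Racgap1, the GTPase-activating subunit of centralspindlin, had 64 and 63.3 CPM in starved and 210 and 207 CPM in fed KO-labelled cells (-1.71 ± 0.034), and 204 and 209 CPM in starved and 308 and 310 CPM in fed WT cells (-0.58 ± 0.032). The starved WT libraries of Racgap1 were at about the level of the fed KO-labelled ones, and their ranges overlapped. Kif23, its kinesin partner MKLP1, had 18.5 and 19.7 CPM in starved and 82.3 and 86.7 CPM in fed KO-labelled cells (-2.15 ± 0.050), and 61.8 and 60.1 CPM in starved and 114 and 113 CPM in fed WT cells (-0.90 ± 0.045). Its starved KO-labelled libraries were the lowest of the 8 and its fed WT libraries the highest. Prc1, which bundles antiparallel microtubules, had 64.2 and 63.7 CPM in starved and 230 and 237 CPM in fed KO-labelled cells (-1.87 ± 0.037), and 82.5 and 79.2 CPM in starved and 126 and 126 CPM in fed WT cells (-0.64 ± 0.038). Anln, the anillin scaffold of the contractile ring, had the smallest fall in both genotypes. It had 123 and 125 CPM in starved and 359 and 357 CPM in fed KO-labelled cells (-1.53 ± 0.031), and 166 and 168 CPM in starved and 244 and 242 CPM in fed WT cells (-0.54 ± 0.031). Ect2, the exchange factor that activates RhoA at the division site, fell by 1.73 in KO-labelled and 0.83 in WT cells.

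The 6 chromosome structure genes fell in both genotypes, with medians of -1.93 in KO-labelled and -1.73 in WT cells. Mki67, whose product Ki-67 coats mitotic chromosomes and marks dividing cells, had the largest fall in both. It had 83.1 and 87.1 CPM in starved and 484 and 490 CPM in fed KO-labelled cells (-2.52 ± 0.037), and 49 and 52.7 CPM in starved and 386 and 372 CPM in fed WT cells (-2.90 ± 0.040). Top2a, the topoisomerase that untangles sister chromatids, fell by 2.21 in KO-labelled and 1.85 in WT cells. The subunits of condensin were unequal. Smc4, an ATPase subunit shared by both condensins, had the smallest fall, with 99.8 and 97.5 CPM in starved and 201 and 204 CPM in fed KO-labelled cells (-1.04 ± 0.034), and 176 and 179 CPM in starved and 259 and 248 CPM in fed WT cells (-0.51 ± 0.034). Its partner Smc2 fell by 1.19 in KO-labelled and 0.91 in WT cells. The condensin I subunits fell by more, Ncapd2 by 1.66 in KO-labelled and 1.75 in WT cells and Ncaph by 2.36 in KO-labelled and 1.72 in WT cells.

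**Figure D2:**
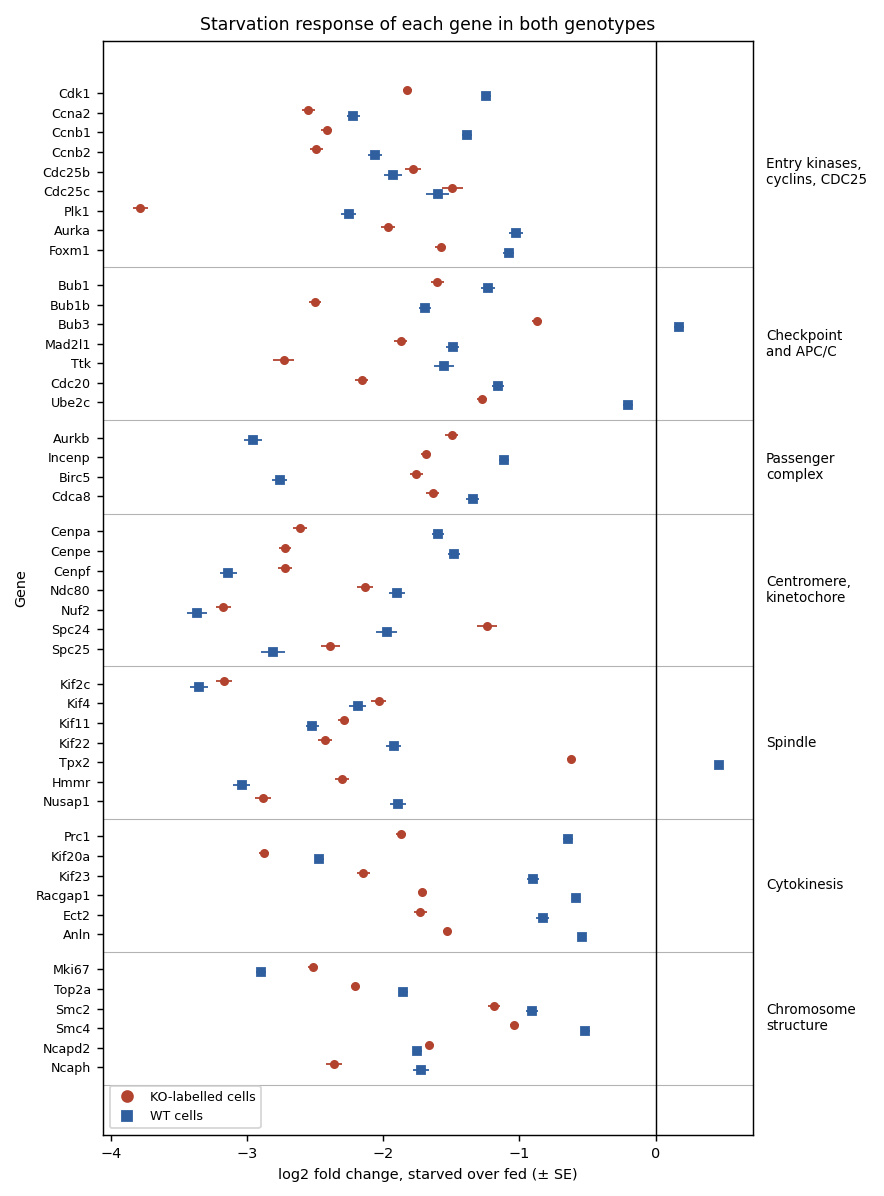
Starvation response of each gene as the log2 fold change of starved over fed (x axis, points, with bars for the SE) in KO-labelled cells (circles) and WT cells (squares), with genes on the y axis by role group. The 6 cytokinesis genes have a median of -1.80 in KO-labelled and -0.74 in WT cells, and the WT values of Bub3 and Tpx2 are the points above 0 under TMM scaling, though not for Bub3 with library totals.

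The size of the fall differed between the genotypes for most of the set, as tested by the interaction, the response of KO-labelled cells minus that of WT cells. Of the 46 genes, 32 had a more negative response in KO-labelled cells, 8 a less negative one, and 6 did not pass, with a median interaction of -0.47. The 40 that passed compare with 64.5% of all genes passing in either direction. Among all genes tested, 30.4% had a more negative response in KO-labelled cells and 34.1% a more positive one, with a median of 0.10. The counts over the set were 28 and 14 when libraries were scaled by their totals, where 3099 of all 14418 genes were more negative and 6306 more positive. The response was more negative in KO-labelled cells for 7 of 7 checkpoint and APC/C activation genes (median -1.0) and 6 of 6 cytokinesis genes (median -1.06), and these counts were the same under library totals. Of the entry genes 7 of 9 were more negative in KO-labelled cells and 2 did not pass (median -0.50), and of the chromosome structure genes 4 were more negative, 1 less negative and 1 did not pass (median -0.32). The other role groups were divided. In the passenger complex 2 genes were more and 2 less negative (median 0.36), in the kinetochore group 3 more, 3 less and 1 not passed (median 0.19), and among the spindle factors 3 more, 2 less and 2 not passed (median 0.15).

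Plk1 had the most negative interaction (-1.53 ± 0.082, adjusted p = 1.14e-12), followed by Kif23 (-1.25 ± 0.068), Cenpe (-1.24 ± 0.062), Prc1 (-1.22 ± 0.053), Ttk (-1.18 ± 0.11), Racgap1 (-1.13 ± 0.046) and Tpx2 (-1.09 ± 0.043). Over the whole set 11 genes were more negative in KO-labelled cells by more than 2-fold, a size that 6.57% of all genes reached in that direction. Both figures hold for TMM scaling. With library totals the median interaction of the set was -0.27 in place of -0.47, so the number past 2-fold depends on the scaling. Aurkb had the most positive interaction (1.46 ± 0.087, adjusted p = 6.02e-12), with its complex partner Birc5 next (1.0 ± 0.073). The others of the 8 were Spc24 (0.74 ± 0.11), Hmmr (0.74 ± 0.085), Spc25 (0.42 ± 0.12), Cenpf (0.41 ± 0.085), Mki67 (0.38 ± 0.053) and Kif11 (0.23 ± 0.064). Within the role groups that were all more negative in KO-labelled cells, the values nearest 0 belonged to Bub1 (-0.38 ± 0.069) and Kif20a (-0.41 ± 0.048). Incenp (-0.57 ± 0.052) and Ncaph (-0.64 ± 0.084) had the most negative interaction of the passenger complex and of the chromosome structure genes. The 6 genes that did not pass were Cdc25b (0.15 ± 0.089, adjusted p = 0.153), Cdc25c (0.11 ± 0.12, adjusted p = 0.444), Nuf2 (0.19 ± 0.10, adjusted p = 0.0987), Kif2c (0.18 ± 0.094, adjusted p = 0.0998), Kif4 (0.15 ± 0.086, adjusted p = 0.122) and Ncapd2 (0.09 ± 0.044, adjusted p = 0.0879). A p that misses the threshold does not show that these genes responded alike, and with library totals all 6 were called less negative in KO-labelled cells, from 0.29 for Ncapd2 (adjusted p = 6.1e-06) to 0.40 for Nuf2 (adjusted p = 0.0015), with the largest adjusted p at Cdc25c (0.0239). Under the same scaling Ccna2 (-0.13, adjusted p = 0.0816), Cdca8 (-0.09, adjusted p = 0.255), Smc2 (-0.08, adjusted p = 0.297) and Ndc80 (-0.03, adjusted p = 0.768) lost their calls. Kif11 lost its call with RLE size factors (0.13, adjusted p = 0.0813) and with DESeq2 (0.13). The interaction of Kif11 lost its call without starved WT replicate 1 (0.05, adjusted p = 0.523) or replicate 2 (0.15, adjusted p = 0.0710), that of Cenpf without starved WT replicate 1 (0.20, adjusted p = 0.0878) and that of Spc25 without starved WT replicate 2 (0.17, adjusted p = 0.288). Ndc80 (-0.23 ± 0.085) lost its call without fed WT replicate 2, fed KO-labelled replicate 2 or starved KO-labelled replicate 1 (adjusted p = 0.0668 to 0.108), and Kif4 was called without starved KO-labelled replicate 2 (0.27, adjusted p = 0.00952). Across the 46 genes the responses of the 2 genotypes had a Pearson correlation of 0.665 and a Spearman correlation of 0.615. The comparisons share no library, but genes are not independent replicates.

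**Figure D3:**
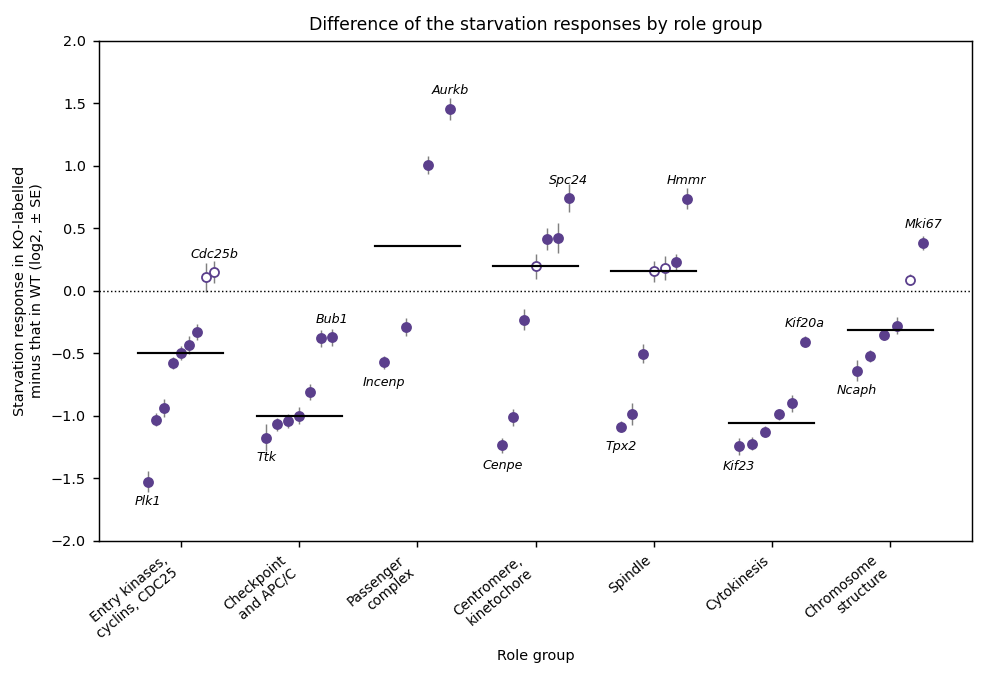
Difference of the starvation responses (KO-labelled minus WT, log2, y axis) of each gene by role group (x axis), with bars for the SE, lines for the group medians, filled points for genes that passed and open points for those that did not. All checkpoint and cytokinesis points lie below 0, and Plk1 (-1.53) and Aurkb (1.46) are the extremes.

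In starved cells the set was lower in KO-labelled than in WT cells for 31 genes and higher for 11, while 4 did not pass, with a median log2 fold change (KO-labelled over WT) of -0.41. Among all genes tested 37.7% were lower and 41.9% higher, with a median of 0.07. With library totals the counts over the set were 23 lower and 18 higher, while of all 14418 genes 3778 were lower and 7817 higher. All 6 cytokinesis genes were lower in starved KO-labelled cells (median -0.64), led by Racgap1, with 64 and 63.3 CPM in KO-labelled and 204 and 209 CPM in WT cells (-1.70 ± 0.034). Kif23 followed with 18.5 and 19.7 CPM in KO-labelled and 61.8 and 60.1 CPM in WT cells (-1.67 ± 0.052). Prc1 had the smallest difference of the 6 (-0.34 ± 0.039), and with library totals it was -0.02 and not called. All 7 checkpoint and APC/C activation genes were lower too (median -0.85), from Ttk (-1.39 ± 0.087) to Bub3 (-0.17 ± 0.039), but with library totals 5 were lower and 1 was higher. Of the entry genes 6 were lower and 2 higher (median -0.46). Ccnb1 was lowest, with 36.4 and 38.2 CPM in KO-labelled and 89 and 92.2 CPM in WT cells (-1.28 ± 0.041), and Cdc25b (0.34 ± 0.071) and Cdc25c (0.23 ± 0.091) were the higher ones. Ccnb2 did not pass (-0.03 ± 0.058, adjusted p = 0.702). With library totals 5 entry genes were lower and 3 higher, with Ccnb2 called higher (0.29, adjusted p = 9.53e-05) and Foxm1 not called (-0.03, adjusted p = 0.522). Of the 6 genes that encode protein kinases in the set, Cdk1 (-0.64), Plk1 (-0.68), Aurka (-0.58), Bub1 (-0.22) and Ttk (-1.39) were lower in starved KO-labelled cells and Aurkb was higher, except that Bub1 was 0.09 and not called with library totals (adjusted p = 0.108).

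Of the 11 genes that were higher in starved KO-labelled cells, 8 belonged to the passenger complex, the kinetochore or the spindle. Aurkb had 34.1 and 33.8 CPM in KO-labelled and 9.46 and 7.91 CPM in WT cells (1.97 ± 0.070), and Birc5 had 29 and 29.1 CPM in KO-labelled and 14.5 and 14.3 CPM in WT cells (1.01 ± 0.059). The other passenger genes, Incenp (-0.63 ± 0.039) and Cdca8 (-0.58 ± 0.055), were lower. Within the kinetochore group Nuf2 (1.32 ± 0.086), Cenpf (1.14 ± 0.071) and Spc25 (0.81 ± 0.10) were higher, Cenpe (-1.33 ± 0.049), Cenpa (-1.32 ± 0.055) and Ndc80 (-0.40 ± 0.069) were lower, and Spc24 did not pass (0.15 ± 0.089, adjusted p = 0.139). With library totals Ndc80 was not called (-0.08, adjusted p = 0.286) and Spc24 was higher (0.46, adjusted p = 6.22e-05). Among the spindle factors Hmmr (0.87 ± 0.070), Kif2c (0.39 ± 0.081) and Kif11 (0.14 ± 0.051) were higher, Tpx2 (-0.97 ± 0.031) and Nusap1 (-0.71 ± 0.070) were lower, and Kif4 (0.03 ± 0.069, adjusted p = 0.736) and Kif22 (0.12 ± 0.063, adjusted p = 0.0866) did not pass. With library totals both were higher (Kif4 0.34, adjusted p = 9.71e-05, and Kif22 0.44, adjusted p = 1.4e-06), and the median of the role group was 0.44 in place of 0.12. Mki67 was the higher one of the chromosome structure genes (0.74 ± 0.041), and Smc4 the lowest (-0.85 ± 0.035). The median of that role group was -0.23, but 0.09 with library totals, where Top2a (0.22, adjusted p = 1.28e-06) and Smc2 (0.11, adjusted p = 0.0381) were called higher and Ncaph was not called (0.07, adjusted p = 0.369). With RLE size factors Kif11 (0.08, adjusted p = 0.152) and Cdc25c (0.17, adjusted p = 0.0886) lost their calls. They did so too with DESeq2 and in fits of 2 groups only. Kif11 lost its call without starved WT replicate 1 (0.03, adjusted p = 0.660), starved WT replicate 2 (0.12, adjusted p = 0.0719) or starved KO-labelled replicate 1 (0.12, adjusted p = 0.0965), and Kif2c without starved WT replicate 2 (0.20, adjusted p = 0.0595). Cdc25c lost its call without starved WT replicate 1 (0.18, adjusted p = 0.172), starved WT replicate 2 (0.16, adjusted p = 0.213) or starved KO-labelled replicate 2 (0.18, adjusted p = 0.139). Spc24 was called without starved KO-labelled replicate 2 (0.28, adjusted p = 0.0111), and Top2a (-0.09 ± 0.031) lost its call without starved KO-labelled replicate 1 (-0.07, adjusted p = 0.105).

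**Figure D4:**
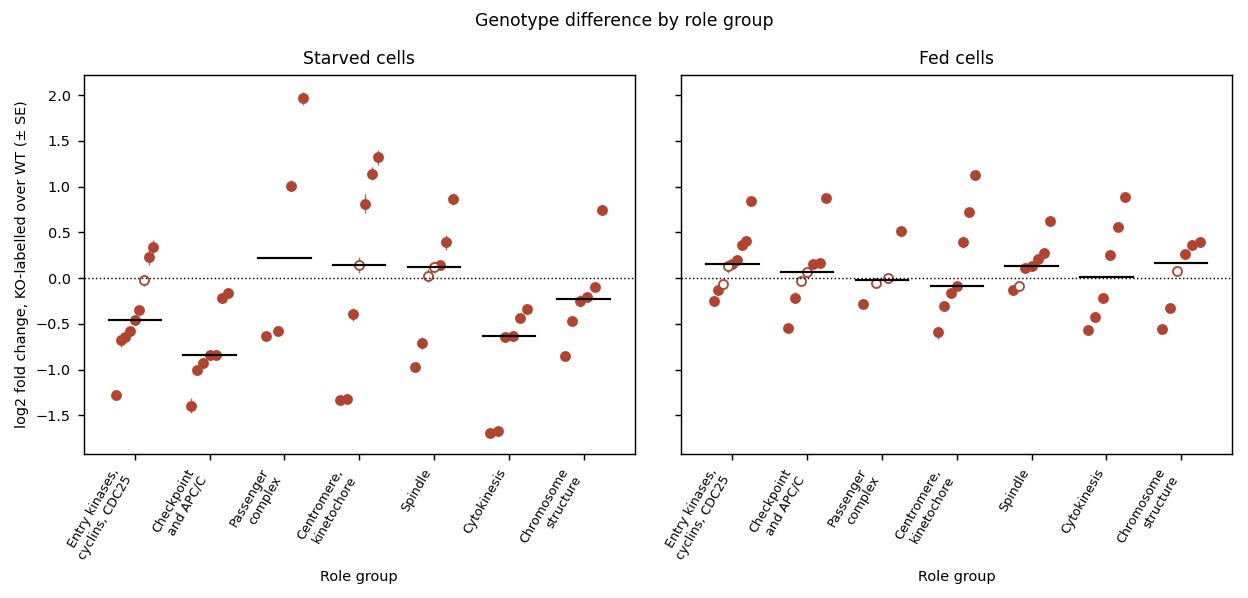
Genotype difference of each gene as the log2 fold change of KO-labelled over WT (y axis, with bars for the SE) by role group (x axis) in starved cells (left) and fed cells (right), with lines for the group medians, filled points for genes that passed and open points for those that did not. In starved cells the checkpoint and cytokinesis points all lie below 0 under TMM scaling (Bub1 and Bub3 do not with library totals) and Aurkb (1.97) is highest.

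The values between genotypes ran from -1.70 to 1.97 in starved cells and from -0.59 to 1.13 in fed cells. In fed cells 23 genes were higher in KO-labelled cells, 15 were lower and 8 did not pass, with a median of 0.12. Among all genes tested 34.5% were higher and 39.8% lower, with a median of -0.06. With library totals 27 of the 46 were higher and 10 lower, while of all 14418 genes 5811 were higher and 4737 lower. No role group had all its genes called in 1 direction. Nuf2 was the single gene more than 2-fold higher (12.5% of all genes were), with 103 and 105 CPM in KO-labelled and 47.3 and 47.8 CPM in WT cells (1.13 ± 0.047). Prc1 (0.89 ± 0.036), Bub3 (0.88 ± 0.038), Plk1 (0.85 ± 0.045), Kif22 (0.62 ± 0.045), Aurkb (0.51 ± 0.048) and Ncaph (0.39 ± 0.050) had the highest values of the other role groups. The lowest value of each role group was that of Spc24 (-0.59 ± 0.068), Racgap1 (-0.57 ± 0.031), Ncapd2 (-0.56 ± 0.029), Mad2l1 (-0.54 ± 0.042), Cdca8 (-0.28 ± 0.045), Ccnb1 (-0.25 ± 0.035) and Kif4 (-0.13 ± 0.051). Kif4, an X-linked gene, lost its call without fed WT replicate 1, either fed KO-labelled library or either starved WT library, with an adjusted p of 0.0677 to 0.198. The 8 genes that did not pass were Cdk1 (-0.06 ± 0.031, adjusted p = 0.0880), Cdc25c (0.13 ± 0.070, adjusted p = 0.101), Bub1b (-0.03 ± 0.038, adjusted p = 0.422), Ube2c (0.06 ± 0.036, adjusted p = 0.109), Incenp (-0.06 ± 0.035, adjusted p = 0.138), Birc5 (0.01 ± 0.042, adjusted p = 0.898), Kif11 (-0.09 ± 0.039, adjusted p = 0.0507) and Smc2 (0.08 ± 0.044, adjusted p = 0.117). Of these, Kif11 was called without fed WT replicate 2 (-0.11, adjusted p = 0.0473), and Cdc25c (0.19, adjusted p = 0.0122), Smc2 (0.14, adjusted p = 0.00151) and Ube2c (0.13, adjusted p = 0.000901) were called without starved WT replicate 1, with like values without starved WT replicate 2. With library totals Birc5 (0.12, adjusted p = 0.012), Cdc25c (0.25, adjusted p = 0.00341), Ube2c (0.18, adjusted p = 0.000124) and Smc2 (0.19, adjusted p = 0.000471) were called higher, and Ccna2, Cenpe, Kif4, Ndc80 and Ttk were not called, with an adjusted p of 0.141 to 0.835. DESeq2 took the calls of Ccna2, Cenpe, Kif4 and Ndc80, and a minimum of 5 CPM those of Ccna2, Cenpe and Kif4. Cenpe (-0.09 ± 0.038) and Kif4 also lost theirs with RLE size factors, summed rows and fits of 2 groups only, and Cenpe without a filter. Calls were gained as well. Smc2 (0.11 to 0.14) and Ube2c (0.10 to 0.12) were called higher with DESeq2, RLE size factors, a minimum of 5 CPM and fits of 2 groups only. Cdc25c (0.17 to 0.19) was called higher with the last 3 of these settings. Cenpe lost its call when any 1 library was left out except starved KO-labelled replicate 1, with values of -0.10 to -0.03. Ccna2 lost its call without fed WT replicate 1, fed KO-labelled replicate 2 or either starved WT library (-0.10 to -0.07). The call of Ndc80 was lost without fed KO-labelled replicate 1 or either starved WT library (-0.12 to -0.10). That of Hmmr was lost without fed WT replicate 1 (0.11) or fed KO-labelled replicate 2 (0.11).

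**Figure D5:**
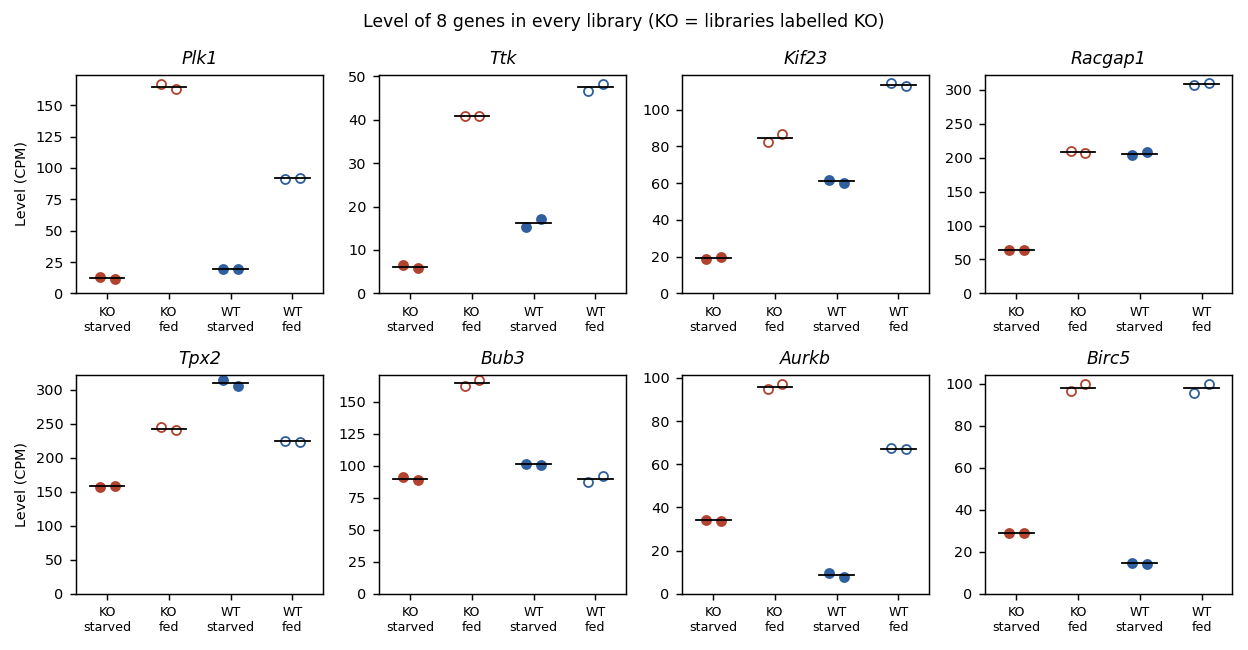
Level of 8 genes (CPM, y axis from 0) in every library (points) of the 4 groups (x axis), with a line for the mean of 2 libraries, filled points for starved and open points for fed cells. Tpx2 and Bub3 are higher in starved than in fed WT cells under this scaling, and Aurkb and Birc5 are higher in starved KO-labelled than in starved WT cells.

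Many promoters of G2 and M phase genes carry CCAAT boxes, bound by NF-Y, and a CHR element, bound by MuvB complexes. RefSeq (GRCm38.p6) gave 40 promoters for 37 of the 46 genes, and the 250 bases before each start were searched on both strands for the pentamer CCAAT and for the hexamers TTTGAA and TTTAAA. The pentamer was present in 32 of the 40 (80%), against 33.9% of 32851 promoters of that length. TTTGAA was present in 16 (40%), against 16.0%, and TTTAAA in 6 (15%), against 12.1%. Either hexamer was present in 52.5%, against 25.2%, and a hexamer together with CCAAT in 47.5%, against 8.78%. A match is a run of letters and not a shown binding site. Bub3, Ect2 and Prc1 each entered with more than 1 promoter, and the searched windows of Bub3 overlap and share the same motifs. The 32851 promoters were not limited to those of the genes tested. Sequences are shown for the gene with the largest fall in KO-labelled cells (Plk1), the gene with the largest fall in WT cells (Nuf2), a passenger gene higher in starved KO-labelled cells (Birc5), the gene with the lowest value in that comparison (Racgap1) and a gene that went against its role group (Bub3, of whose listed starts the upstream one is shown). Capitals mark the searched motifs on either strand. Plk1 holds 1 CCAAT and 2 TTTAAA, Nuf2 none of the motifs, Birc5 1 TTTAAA, Racgap1 1 CCAAT (read as ATTGG) and Bub3 2 CCAAT and 1 TTTGAA (read as TTCAAA).
Plk1 promoter, chr7:122159185-122159434, plus strand: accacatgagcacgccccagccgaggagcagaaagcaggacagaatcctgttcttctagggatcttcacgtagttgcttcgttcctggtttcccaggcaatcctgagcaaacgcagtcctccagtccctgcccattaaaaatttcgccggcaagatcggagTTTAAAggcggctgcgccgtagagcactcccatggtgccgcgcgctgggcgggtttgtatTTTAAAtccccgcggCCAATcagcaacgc
Nuf2 promoter, chr1:169531465-169531714, minus strand: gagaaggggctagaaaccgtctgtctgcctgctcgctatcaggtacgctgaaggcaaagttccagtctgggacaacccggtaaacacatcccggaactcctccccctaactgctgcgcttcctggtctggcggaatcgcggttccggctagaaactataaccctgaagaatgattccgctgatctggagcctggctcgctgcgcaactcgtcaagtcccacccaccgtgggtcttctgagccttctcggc
Birc5 promoter, chr11:117848987-117849236, plus strand: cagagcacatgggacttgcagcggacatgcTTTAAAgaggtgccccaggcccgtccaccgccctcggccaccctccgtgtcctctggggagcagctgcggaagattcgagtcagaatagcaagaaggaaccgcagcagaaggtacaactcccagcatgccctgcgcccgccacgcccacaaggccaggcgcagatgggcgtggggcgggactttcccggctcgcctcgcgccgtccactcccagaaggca
Racgap1 promoter, chr15:99651657-99651906, minus strand: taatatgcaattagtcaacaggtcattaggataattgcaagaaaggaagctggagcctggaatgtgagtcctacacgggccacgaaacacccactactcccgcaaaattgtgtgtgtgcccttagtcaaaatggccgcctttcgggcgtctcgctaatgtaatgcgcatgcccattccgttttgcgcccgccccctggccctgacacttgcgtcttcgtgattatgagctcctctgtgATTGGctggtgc
Bub3 promoter, chr7:131560120-131560369, plus strand: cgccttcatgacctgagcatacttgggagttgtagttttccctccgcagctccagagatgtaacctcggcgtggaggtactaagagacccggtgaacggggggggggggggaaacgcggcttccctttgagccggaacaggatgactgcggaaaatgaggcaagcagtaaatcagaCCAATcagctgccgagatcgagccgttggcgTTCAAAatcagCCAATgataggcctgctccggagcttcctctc

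Other genes of the same processes were taken from 8 lists of 156 genes, of which 155 were tested. In KO-labelled cells 115 fell, 26 rose and 14 did not pass, and in WT cells 110 fell, 35 rose and 10 did not pass. Of all genes tested 40.3% fell and 39.4% rose in KO-labelled cells, and 44.8% fell and 36.7% rose in WT cells. With library totals 7242 of all 14418 genes fell and 4261 rose in KO-labelled cells, and 8629 fell and 3397 rose in WT cells. Falls and rises of single genes are log2 fold changes here too. Most kinetochore and spindle genes outside the set fell in both genotypes. Of 33 other kinetochore genes 29 fell and 1 rose in KO-labelled cells, against 32 and 0 in WT cells, with medians of -0.95 in KO-labelled and -0.97 in WT cells. Cenpl, a constitutive centromere gene, had 2.06 ± 0.27 CPM in starved and 19 ± 1.0 CPM in fed KO-labelled cells (mean ± SD, n = 2), and 0.795 ± 0.40 CPM in starved and 11.5 ± 0.22 CPM in fed WT cells. Mis12, which links the centromere to the outer kinetochore, was the gene that rose in KO-labelled cells (0.50 ± 0.046). Of 27 other spindle and centrosome genes 24 fell and 1 rose in KO-labelled cells, against 23 and 3 in WT cells, with medians of -1.03 in KO-labelled and -0.88 in WT cells. Aspm, a spindle pole gene, fell by 3.35 in KO-labelled and 3.24 in WT cells, and Tacc2, a centrosome gene, rose by 0.59 in KO-labelled and 1.24 in WT cells. Of 4 other condensin genes 3 fell in KO-labelled (median -1.39) and 4 in WT cells (median -0.88), with Ncapg at -1.73 ± 0.054 in KO-labelled and Ncapg2 at -1.35 ± 0.052 in WT cells. Of 16 cohesin, separase and securin genes 15 fell and 0 rose in KO-labelled cells, against 9 and 6 in WT cells, with medians of -0.71 in KO-labelled and -0.28 in WT cells. With library totals 16 fell and 0 rose in KO-labelled cells (median -0.96), against 10 and 2 in WT cells (median -0.74). Wapal, which releases cohesin, rose in WT cells (1.0 ± 0.041), and Esco2, the cohesin acetyltransferase of S phase, fell there (-3.55 ± 0.12), while Sgol2, a protector of centromeric cohesin, led the falls in KO-labelled cells (-2.57 ± 0.067).

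The shares of the remaining lists, and of the cohesin list in WT cells, lay nearer to those of all genes than the shares of the kinetochore, spindle and condensin lists did, and nothing is read from them. Of 16 genes of APC/C subunits and cofactors 9 fell and 4 rose in KO-labelled cells, against 10 and 4 in WT cells, with medians of -0.23 in KO-labelled and -0.22 in WT cells. With library totals 12 fell and 2 rose in each genotype, with medians of -0.49 in KO-labelled and -0.68 in WT cells. Fbxo5, which encodes the APC/C inhibitor EMI1, fell by 2.50 in KO-labelled and 2.62 in WT cells, and the subunit gene Anapc16 rose by 1.08 in KO-labelled and 0.93 in WT cells. Of 16 tested other cytokinesis genes 8 fell and 7 rose in KO-labelled cells, against 7 and 9 in WT cells. The median of that list was -0.06 in KO-labelled cells and 0.42 in WT cells, where it turned to -0.03 with library totals. Kif14, a kinesin of the midbody, had 3.63 ± 0.29 CPM in starved and 43.9 ± 0.31 CPM in fed KO-labelled cells, and 1.05 ± 0.51 CPM in starved and 24.2 ± 0.58 CPM in fed WT cells. Arhgef2, a RhoA exchange factor gene that also acts outside mitosis, rose by 0.80 in KO-labelled and 1.22 in WT cells. Of 19 other entry regulators 12 fell and 6 rose in KO-labelled cells, against 11 and 5 in WT cells, with medians of -0.71 in KO-labelled and -0.85 in WT cells. Plk3, a stress-responsive Polo-like kinase gene, rose by 2.77 in KO-labelled and 1.59 in WT cells. Pbk, a mitotic kinase gene, led the falls in KO-labelled cells (-2.33 ± 0.066) and Gsg2, the haspin kinase that marks histone H3 at centromeres, in WT cells (-3.39 ± 0.27). The starved level of Gsg2 was low and uneven, with 0.653 ± 0.58 CPM in starved and 6.89 ± 0.77 CPM in fed WT cells (mean ± SD, n = 2). Of 24 MuvB, DREAM and E2F genes 15 fell and 7 rose in KO-labelled cells, against 14 and 8 in WT cells, with medians of -0.42 in KO-labelled and -0.40 in WT cells, or -0.67 in KO-labelled and -0.85 in WT cells with library totals. Lin52, a MuvB subunit, rose by 1.57 in KO-labelled and 1.94 in WT cells. E2f8, a repressor of the E2F family, fell by 5.08 in WT cells. It had 0.488 ± 0.082 CPM in starved and 16.6 ± 0.85 CPM in fed WT cells (mean ± SD, n = 2), so the size of this fall rests on a low starved level. Myb passed the filter on low counts through the fed KO-labelled libraries alone, so its fall there (18 and 20 counts when fed, 0 when starved) supports nothing. Myb is still included in the 15 genes of this list that fell in KO-labelled cells, in the 115 over all lists and in the medians.

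For 10 of the 46 genes the span of another gene in the table overlaps the locus: Ccna2, Aurka, Cdc20, Nusap1, Prc1, Kif20a, Ect2, Anln, Smc4 and Ncapd2. Without strand, reads from a stretch that both transcripts share could not be told apart. Whether exons overlap was not examined, and some of the overlapping genes are small RNAs (Mir15b and Mir16-2 at Smc4, Scarna10 at Ncapd2). RefSeq names pseudogenes of Ccnb1, Ccnb2, Kif4 and Kif22, and the counting may have split reads with them.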

How the data were processed

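Per the labels, RNA of 8 MEF libraries was sequenced. The table that the authors deposited holds raw counts, whole numbers for each RefSeq transcript, in 31055 rows with 23366 symbols. The submitters' processing notes list TopHat2 2.0.9, bedtools and mm9 without saying what each did. Strandedness and the handling of multiply matching reads were not stated in the labels or headers. The 4 value columns that match no labelled sample were left out. Of the 46 genes 10 have more than 1 row, and each lower row reached at least 90.4% of the highest, so only the highest was used. Groups and replicate numbers were read from the titles.

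The count model was that of edgeR 4.0.16 (R 4.3.3, limma 3.58.1), with TMM scaling, filterByExpr (14418 genes kept), a coefficient for each group across the 8 libraries (4 residual degrees of freedom), a quasi-likelihood F test and p-values adjusted by Benjamini-Hochberg over all genes, called at 0.05. SEs were derived as the size of the log2 fold change divided by the root of F. CPM refer to the TMM-scaled totals. The common biological coefficient of variation was 0.0341, which sets the precision together with the depth of 38407520 to 53602289 counts. Replicates correlated at 0.987 to 0.993 in log2 CPM, and their counts differed beyond sampling noise (chi-square per degree of freedom 3.34 to 6.04). Alternatives were DESeq2 1.42.0, RLE size factors, library totals, no filter, a minimum of 5 CPM, summed rows, a replicate block, fits of 2 groups only and leaving out each library. In each role group and comparison the genes with the highest and lowest values, and those that missed the threshold or went against their group, are given in full, as are the called extremes of each pathway list. The genes and lists were chosen with earlier results of these data known. RefSeq annotation of GRCm38.p6, another build than that of the counts, served for overlaps, pseudogenes, chromosomes and promoters.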

Additional observations from a re-analysis of the deposited data

Results flagged for a closer look

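A starvation response that differed between the genotypes, by the test of the interaction (KO-labelled minus WT, log2, edgeR, adjusted p under 0.05), marked 40 of the 46 genes. Of all genes tested 64.5% passed this test in either direction. Among the entry kinases, cyclins and CDC25 genes the difference was -1.53 for Plk1, -1.03 for Ccnb1, -0.94 for Aurka, -0.58 for Cdk1, -0.50 for Foxm1, -0.43 for Ccnb2 and -0.33 for Ccna2. The spindle checkpoint and APC/C activation genes gave -1.18 for Ttk, -1.07 for Ube2c, -1.04 for Bub3, -1.0 for Cdc20, -0.81 for Bub1b, -0.38 for Mad2l1 and -0.38 for Bub1. For the chromosomal passenger genes the values were -0.57 for Incenp, -0.29 for Cdca8, 1.0 for Birc5 and 1.46 for Aurkb. Within the centromere and kinetochore genes it was -1.24 for Cenpe, -1.01 for Cenpa, -0.23 for Ndc80, 0.41 for Cenpf, 0.42 for Spc25 and 0.74 for Spc24. The values of the spindle motors and microtubule factors were -1.09 for Tpx2, -0.99 for Nusap1, -0.50 for Kif22, 0.23 for Kif11 and 0.74 for Hmmr. In the central spindle and cytokinesis genes it came to -1.25 for Kif23, -1.22 for Prc1, -1.13 for Racgap1, -0.99 for Anln, -0.90 for Ect2 and -0.41 for Kif20a. The chromosome structure genes had -0.64 for Ncaph, -0.52 for Smc4, -0.36 for Top2a, -0.28 for Smc2 and 0.38 for Mki67. With library totals in place of TMM the differences of Ccna2 (-0.13, adjusted p = 0.0816), Cdca8 (-0.09, adjusted p = 0.255), Smc2 (-0.08, adjusted p = 0.297) and Ndc80 (-0.03, adjusted p = 0.768) did not pass. A negative value means a more negative response in KO-labelled than in WT cells. Genotype cannot be told apart from sex in these libraries.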

How the results depend on the processing

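Scaling moved the values most. With library totals in place of TMM the median log2 fold change of all genes was -0.27 for starvation in KO-labelled cells, -0.63 in WT cells, 0.39 between genotypes when starved, 0.05 when fed and 0.29 for the interaction. The medians of the 46 genes became -2.34 for starvation in KO-labelled cells, -2.10 in WT cells, -0.10 between genotypes when starved, 0.24 when fed and -0.27 for the interaction. The number called higher became 0 for starvation in WT cells, 18 between genotypes when starved and 14 for the interaction. Of all 14418 genes 3397, 7817 and 6306 were called higher in these comparisons under that scaling. Directions turned for Bub3 in WT starvation (-0.28), for Cenpe between genotypes when fed (0.025), and between genotypes when starved for Bub1 (0.094), Bub3 (0.15), Ccnb2 (0.29), Ncaph (0.065), Smc2 (0.11) and Top2a (0.22). With RLE size factors the medians were -2.12 for starvation in KO-labelled cells, -1.58 in WT cells, -0.48 between genotypes when starved, 0.16 when fed and -0.56 for the interaction, and DESeq2 gave the same values to this rounding (-2.12, -1.58, -0.48, 0.16 and -0.56). A minimum of 5 CPM gave -2.17 for starvation in KO-labelled cells, 0.17 between genotypes when fed and -0.54 for the interaction. Fits of 2 groups only gave -1.57 for starvation in WT cells and 0.18 between genotypes when fed. Over 1794 values of single genes under the alternatives that kept every library of a comparison, 34 lost and 24 gained a call and 8 turned direction. The cause of these shifts was not tested. Leaving out each library in turn gave medians of -2.14 to -2.01 for starvation in KO-labelled cells, -1.65 to -1.55 in WT cells, -0.48 to -0.39 between genotypes when starved, 0.11 to 0.19 when fed and -0.59 to -0.45 for the interaction. Under the same settings 46 genes fell in KO-labelled cells, and 44 fell and 2 rose in WT cells. Between genotypes 30 to 31 were lower and 8 to 11 higher when starved and 11 to 15 lower and 22 to 26 higher when fed, and the interaction was lower for 31 to 32 and higher for 6 to 9. Over the 1840 values of single genes under these settings, 36 lost and 9 gained a call and 0 turned direction. Same-numbered libraries did not deviate together (correlation of deviations -0.0134 to 0.0135). The labels do not say whether the numbers pair the libraries, and a correlation near 0 cannot settle it, because sampling noise can hide a shared effect. The fit with a replicate block changed 0 of 230 calls. Its medians were -2.08 for starvation in KO-labelled cells, -1.65 in WT cells, -0.41 between genotypes when starved, 0.12 when fed and -0.47 for the interaction. With 2 libraries a group, the fit leaves 4 residual degrees of freedom. The quasi-likelihood test also draws the spread of each gene toward that of all genes, so the small p-values rest on this borrowed spread as well.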
